A study of Mus musculus with 32 samples.

Results

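The transcripts of 39 genes of DNA replication and mitosis were followed in 3T3-L1 adipocytes: 20 replication genes, listed from Mcm2 to Uhrf1, and 19 mitosis genes, from Top2a to Foxm1. The genes were taken by symbol from the deposited count table. All 39 were found among the 57186 genes listed, and all 39 were among the 14428 genes that passed the filter on low counts and were tested. 3T3-L1 is a mouse preadipocyte line, here turned into adipocytes with insulin, dexamethasone and IBMX. The differentiated cells received DMSO vehicle, SCO, CAP7 (written Cap 7 in the treatment protocol) or rosiglitazone (ROSI), an agonist of the adipocyte transcription factor PPARγ. Each of these 4 treatments was given without and with TNF-alpha (TNF), an inflammatory cytokine, for 24 h, which made 8 groups of 4 libraries. An extract of Artemisia scoparia is named in the series title, but the sources used here do not define SCO or CAP7 or state a dose. All groups share the cell line and the differentiation protocol, and vehicle without TNF is called untreated below. In the labels the 4 libraries of each group are biological replicates, with no batch or day given. The p-values rest on the spread between libraries within groups, estimated in a single fit over all 32 libraries, with information shared across genes.

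Growing cells copy their DNA in S phase and divide in mitosis, and the genes for these steps are switched on in waves. Replication genes are classic targets of E2F factors, which the retinoblastoma protein family holds back until cyclin-dependent kinases release them, and mitosis genes rise later, through the MuvB complex with B-MYB and FOXM1 at an element called the cell cycle genes homology region (CHR). Preadipocytes divide for a short time after induction and then leave the cell cycle as they become fat cells, so in a differentiated culture both sets are usually low.

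The replication genes cover the helicase that unwinds DNA (Mcm2 to Mcm7), its loading and firing (Cdc6, Cdt1, Gins2), the sliding clamp Pcna with its loader subunit Rfc3 and the polymerase alpha and primase subunits Pola1 and Prim1. They also cover nucleotide supply (Rrm1, Rrm2, Tk1, Tyms), the E-type cyclins Ccne1 and Ccne2, and Uhrf1, which guides maintenance methylation to new DNA. The mitosis genes cover mitotic entry (Cdk1, Ccna2, Ccnb1, Ccnb2, Plk1, Aurka, Foxm1), chromosome structure and the proliferation antigen (Top2a, Mki67), the chromosome passengers and the checkpoint (Aurkb, Birc5, Bub1, Bub1b, Cdc20), and the spindle and cytokinesis (Kif11, Kif20a, Tpx2, Nusap1, Prc1).

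The promoters of both sets are shown first because they were searched for the motifs of these regulators. RefSeq windows of 300 bases (250 before to 50 after the annotated start, build GRCm38.p6) were found for 31 of the 39 genes, 17 of replication and 14 of mitosis. An E2F motif was searched as TTTCCCGC, TTTCGCGC, TTTGCCGC or TTTGGCGC, a CHR as TTTGAA or TTCGAA, and a CCAAT box as CCAAT, each on both strands, with overlapping matches counted separately. E2F letters stood in 8 of 17 replication windows (47.1%) and in 1 of 14 mitosis windows (7.14%, Cdk1), against 2.32% of 27025 genes in the table. CHR letters stood in 3 of 17 replication windows (17.6%) and in 11 of 14 mitosis windows (78.6%), against 19.4% of all genes. CCAAT letters stood in 70.6% and 85.7%, against 37.9%. The median GC content was 57.3% in replication windows, 58.3% in mitosis windows and 52.7% over all genes. The 6 stretches below run 5′ to 3′ from 200 bases before to 20 after the start, on the gene's strand, and were chosen for their matches; capitals mark E2F and CHR letters. Mcm5 (chr8:75109309-75109528, plus strand) and Mcm6 (chr1:128359686-128359905, minus strand) each hold a pair of overlapping E2F matches on opposite strands, and Mcm6 a further one.
Mcm5: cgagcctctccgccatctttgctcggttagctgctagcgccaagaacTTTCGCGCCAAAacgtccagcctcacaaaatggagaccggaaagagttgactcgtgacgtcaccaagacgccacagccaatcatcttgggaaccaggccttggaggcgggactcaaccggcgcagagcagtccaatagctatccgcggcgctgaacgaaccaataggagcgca
Mcm6: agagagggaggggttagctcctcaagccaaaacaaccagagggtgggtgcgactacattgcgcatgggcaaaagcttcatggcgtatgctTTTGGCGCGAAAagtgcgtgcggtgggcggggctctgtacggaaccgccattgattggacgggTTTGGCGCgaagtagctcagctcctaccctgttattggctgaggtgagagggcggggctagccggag
Cdk1 (chr10:69352893-69353112, minus strand) holds E2F letters 131 bases before the start and CHR letters 71 and 15 bases before it. Cdc20 (chr4:118437324-118437543, minus strand) and Kif11 (chr19:37376182-37376401, plus strand) have a single CHR match, 18 and 19 bases before the start. Top2a (chr11:99024170-99024389, minus strand) holds 4 CHR matches and 6 CCAAT matches in its window.
Cdk1: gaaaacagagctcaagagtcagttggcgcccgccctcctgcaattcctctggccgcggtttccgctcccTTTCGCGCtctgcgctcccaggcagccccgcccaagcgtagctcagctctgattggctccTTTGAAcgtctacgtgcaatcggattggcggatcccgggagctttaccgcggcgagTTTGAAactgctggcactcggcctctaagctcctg
Cdc20: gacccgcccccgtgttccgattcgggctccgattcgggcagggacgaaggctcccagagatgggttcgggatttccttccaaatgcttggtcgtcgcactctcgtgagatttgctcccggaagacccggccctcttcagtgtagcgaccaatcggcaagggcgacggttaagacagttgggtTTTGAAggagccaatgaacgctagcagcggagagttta
Kif11: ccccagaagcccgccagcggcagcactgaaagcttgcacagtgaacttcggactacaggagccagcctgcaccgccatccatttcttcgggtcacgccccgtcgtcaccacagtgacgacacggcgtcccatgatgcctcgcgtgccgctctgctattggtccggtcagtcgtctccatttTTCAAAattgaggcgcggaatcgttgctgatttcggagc
Top2a: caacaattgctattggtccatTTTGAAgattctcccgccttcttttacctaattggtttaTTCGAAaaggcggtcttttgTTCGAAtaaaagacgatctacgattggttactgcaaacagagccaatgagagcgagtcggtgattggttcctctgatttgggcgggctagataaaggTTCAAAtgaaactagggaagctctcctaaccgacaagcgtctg
A match describes letters and not a bound site, and a window without one says only that these letters are not in it.

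**Figure D1:**
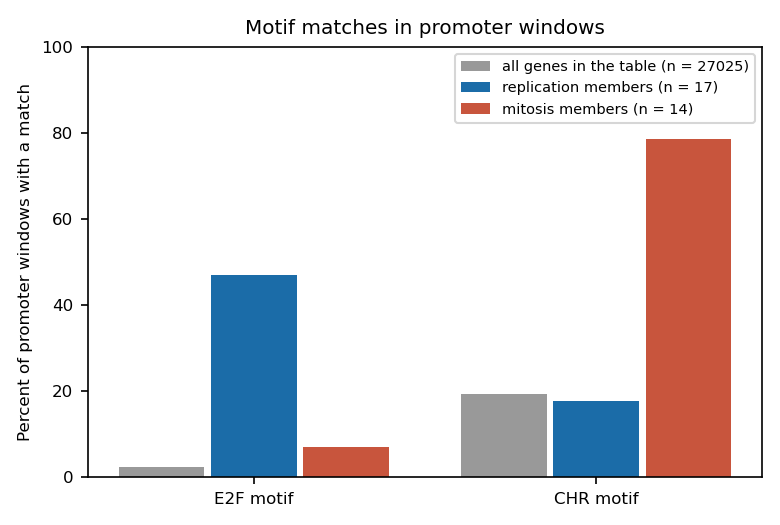
Percent of promoter windows of 300 bases with an E2F or a CHR match (y axis), for all 27025 genes in the RefSeq table (grey), 17 replication genes (blue) and 14 mitosis genes (red). E2F matches stood in 47.1% of replication and 7.14% of mitosis windows, CHR matches in 17.6% and 78.6%.

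Libraries held 11.3 to 37.7 M counts (1e6 counts, median 20.9 M), and the 39 genes had from 5 to 2794 counts in a library. Levels below are counts per 1e6 counts after TMM scaling (CPM), with the SD over 4 libraries. Changes are on the log2 scale and carry their standard error. A gene is said to rise or fall where edgeR's quasi-likelihood test gave a Benjamini-Hochberg adjusted p under 0.05 over all 14428 genes. Adipocyte markers were high (11 of 12 tested, summed level 43055 to 45437 CPM untreated and 12798 to 14958 with TNF), while Lep, at most 0.226 CPM as a group mean, was not tested. Of leukocyte markers, Adgre1 had no count in any library and Ptprc was at most 0.0764 CPM as a group mean. The whole list of 8 summed to 11.1 to 14.8 CPM untreated and 39.4 to 50.8 with TNF, carried by Cd14 and Cd68.

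Averaged over their genes, both sets were lowest with CAP7 alone and highest with TNF alone. The mean log2(CPM + 0.5) of the replication genes was 3.70 untreated, 3.41 with SCO, 3.17 with CAP7 and 3.72 with ROSI, and 4.52, 4.48, 4.17 and 4.37 with TNF in the same order. For the mitosis genes these means were 3.07, 2.61, 2.38 and 3.33 without TNF and 3.71, 3.39, 3.10 and 3.63 with it. Because whole cultures were measured, fewer cycling cells and less RNA per cycling cell cannot be told apart. The replication mean minus the mitosis mean was 0.63 ± 0.11 (SD) untreated, 0.80 ± 0.07 with SCO, 0.79 ± 0.02 with CAP7 and 0.38 ± 0.08 with ROSI. With TNF it was 0.81 ± 0.13 in vehicle, 1.10 ± 0.11 with SCO, 1.08 ± 0.13 with CAP7 and 0.75 ± 0.13 with ROSI. The 4 TNF plus SCO libraries, at 0.957 to 1.205, lay above all 4 with TNF alone, at 0.629 to 0.929. So did the 4 with TNF plus CAP7, at 0.934 to 1.215, the lowest of them by a small gap. Without TNF the ROSI libraries, at 0.30 to 0.49, overlapped the untreated ones, at 0.48 to 0.74, at their ends. These differences describe chosen genes and carry no test.

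**Figure D2:**
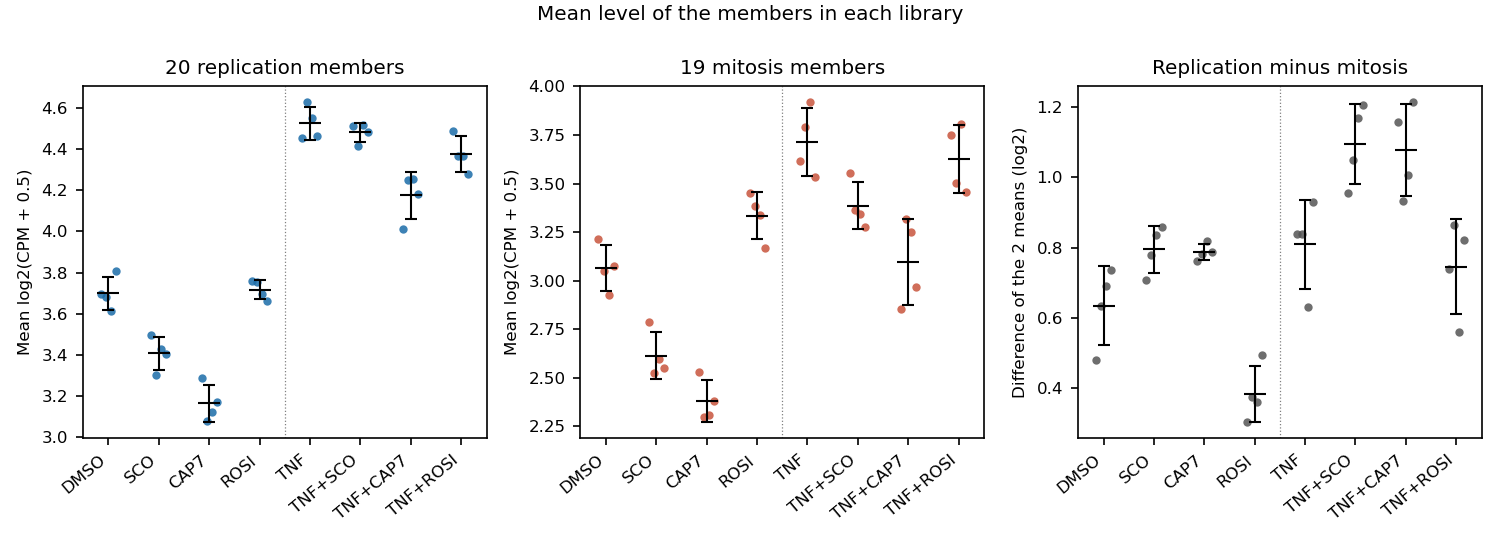
Mean log2(CPM + 0.5) of the 20 replication genes (left) and the 19 mitosis genes (middle) and their difference (right) in each of 32 libraries; dots are libraries, bars the mean and SD of 4. Both means are lowest with CAP7 alone (3.17 and 2.38) and highest with TNF alone (4.52 and 3.71), and the difference is smallest with ROSI alone (0.38).

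By gene, CAP7 alone had the lowest mean of the 8 groups for 33 of 39 genes, 16 of replication and 17 of mitosis, although only 7 of the 39 differed between SCO alone and CAP7 alone. The highest mean was with TNF alone for 22 genes, with TNF plus ROSI for 11, with TNF plus SCO for 5, all of replication, and with ROSI alone for 1, the B-type cyclin Ccnb2. The ratio of the highest to the lowest group mean ran from 1.38 to 6.03, with a median of 2.67 in replication and 2.96 in mitosis genes. The median coefficient of variation within a group was 10.3% for replication and 17.6% for mitosis genes, so single mitosis genes were measured with more relative spread.

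TNF in vehicle-treated cells raised 36 of 39 genes and lowered none, where 26.7% of all genes rose and 27.5% fell. Of the replication genes 19 of 20 rose, and of the mitosis genes 17 of 19; the exceptions were the primase subunit Prim1 and the mitotic kinase and cyclin Cdk1 and Ccnb2. The median change was 0.82 in replication and 0.68 in mitosis genes, against -0.01 over all genes. DESeq2 called the same number and limma-voom 35. Adipocyte markers fell in the same comparison (11 of 11 tested), and 2 of 4 tested leukocyte markers rose; their part in the result was not tested.

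Among helicase subunits Mcm6 stood at 20.1, 18.5, 20.2 and 18.7 CPM in the 4 untreated libraries and at 40.1, 44.5, 49.6 and 43.1 with TNF. Mcm7 stood at 41.9, 35.9, 42.5 and 45.9 untreated and at 72.8, 81.2, 70.0 and 73.4 with TNF. Every TNF library was above every untreated one for both genes. All 6 helicase subunits rose, with a median change of 1.02 and a range from 0.67 to 1.45. Uhrf1, the methylation guide, was at 4.08, 4.27, 2.97 and 4.87 CPM untreated and at 12.1, 14.6, 12.2 and 10.0 with TNF, again without overlap, and its change of 1.60 ± 0.18 was the largest of the 39. Nucleotide supply genes rose in 4 of 4 cases (median 0.85), among them the ribonucleotide reductase subunit Rrm2 (0.91 ± 0.12), as did the 3 licensing and firing genes (median 0.77; Cdt1 0.96 ± 0.12). The clamp Pcna rose by 0.87 ± 0.13. The E-type cyclins had the smallest median of the replication roles (0.43), and Ccne1 rose by 0.47 ± 0.12 and Ccne2 by 0.39 ± 0.11.

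Top2a, the topoisomerase that untangles sister chromosomes, was at 36.2, 32.7, 32.4 and 38.3 CPM untreated and at 69.6, 83.5, 90.6 and 59.8 with TNF. The 4 TNF libraries spread widely, and all lay above the untreated ones. Foxm1, the transcription factor of the late wave, was at 6.90, 4.79, 5.87 and 3.69 CPM untreated and at 12.1, 10.4, 14.4 and 10.8 with TNF, a change of 1.14 ± 0.18. Birc5 (survivin, a passenger protein) rose by 0.76 ± 0.13 and the spindle assembly factor Tpx2 by 0.91 ± 0.15. Cdk1 was at 52.5, 54.2, 50.6 and 46.4 CPM untreated and at 56.9, 57.2, 60.9 and 54.0 with TNF, which overlapped, and its change of 0.17 ± 0.094 did not pass (edgeR adjusted p = 0.134). Ccnb2 differed by 0.06 ± 0.22 (edgeR adjusted p = 0.846) and Prim1 by 0.36 ± 0.19 (edgeR adjusted p = 0.113). Mitotic entry had the smallest median of the mitosis roles, 0.54 with 5 of 7 genes called, and chromosome structure the largest, 0.94. Of the 36 calls, 28 held in each alternative setting that tested the gene and with each library left out. Genes under the floor of 5 CPM in 4 libraries were not tested in that setting.

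**Figure D3:**
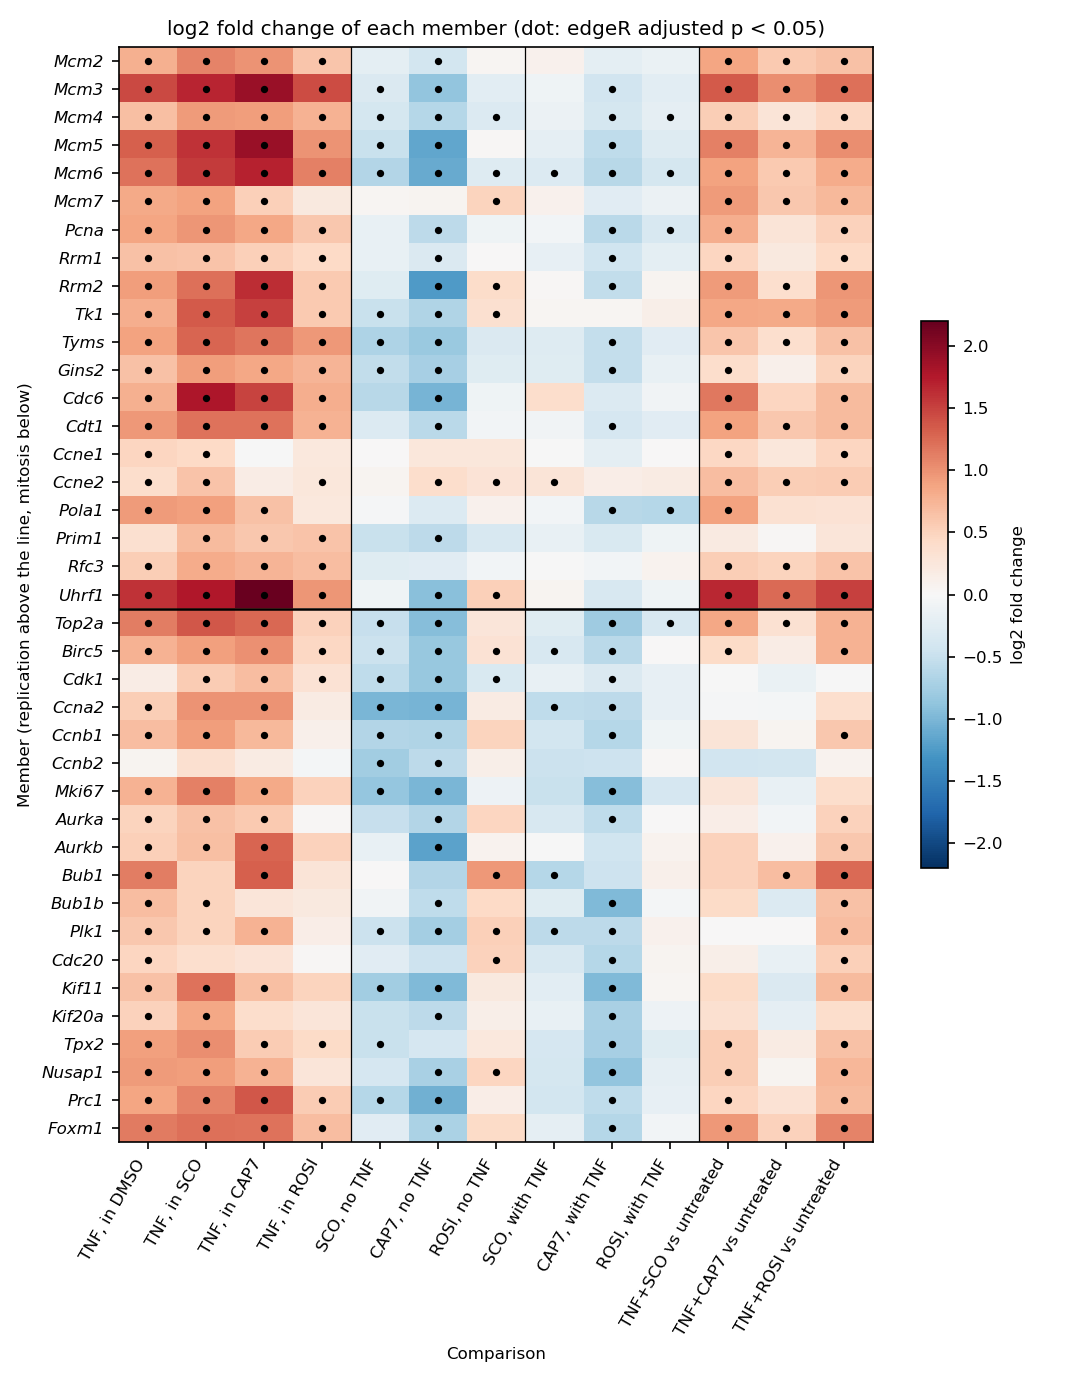
log2 fold change (colour) of each of the 39 genes (y axis, replication above the line) in 13 comparisons (x axis); a dot marks an edgeR adjusted p under 0.05. TNF columns are red for nearly all genes, with 23 dots in ROSI against 36 in vehicle, and the column of CAP7 without TNF is blue for 31 called genes.

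With each compound present, TNF again raised these genes, with fewer mitosis genes called in ROSI. In SCO 36 of 39 rose, 20 of replication and 16 of mitosis (background 25% higher and 23.3% lower; medians 1.03 and 0.89). In CAP7 33 rose, 18 and 15 (background 23.4% and 22.4%; medians 0.95 and 0.76). In ROSI 23 rose, 17 of 20 replication but 6 of 19 mitosis genes (background 24.9% and 22.5%; medians 0.66 and 0.28), and none of the 39 fell in any of the 3. These 4 TNF comparisons share no library. The 20 genes called higher in all 4 of them were 15 of replication and 5 of mitosis (Top2a, Birc5, Tpx2, Prc1, Foxm1). The share of all genes called higher in all 4 was not counted. A further 10 genes rose in vehicle, SCO and CAP7 but were not called in ROSI: Mcm7, Pola1, Ccna2, Ccnb1, Mki67, Aurka, Aurkb, Plk1, Kif11 and Nusap1. The test of the difference itself, the interaction described further below, called only Mcm7, Pola1 and Nusap1 of these.

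In ROSI-treated cells Plk1, the kinase that drives mitotic entry, stood at 14.7, 12.8, 13.0 and 11.2 CPM without and 17.7, 11.7, 15.1 and 13.1 with TNF. Both sets of libraries overlapped, and the change was 0.15 ± 0.15 (edgeR adjusted p = 0.427). Cyclin A, Ccna2, was at 12.7, 13.1, 9.57 and 10.0 without and 12.2, 12.1, 14.9 and 11.9 with TNF, which also overlapped (0.18 ± 0.18), and the anaphase activator Cdc20 changed by 0.02 ± 0.17. Replication genes in the same libraries did separate: Mcm3 went from 14.6, 14.8, 19.1 and 17.5 CPM to 47.2, 46.4, 42.8 and 42.5, a rise of 1.44 ± 0.11, and Cdt1 rose by 0.77 ± 0.12. Mitotic entry genes had a median change of 0.15 with 2 of 7 called in ROSI, against 0.88 with 5 of 6 called for the helicase.

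CAP7 without TNF lowered 31 of 39 genes, 15 of replication and 16 of mitosis, where 15% of all genes fell; it raised 1, the E-type cyclin Ccne2, where 15.2% rose. The medians were -0.61 and -0.71. Rrm2 was at 10.5, 8.42, 9.56 and 9.15 CPM untreated and at 3.48, 4.01, 4.63 and 3.91 with CAP7, so that every CAP7 library was below every untreated one by a wide gap. Prc1, which bundles the central spindle, fell by 1.06 ± 0.20 and Aurkb, the passenger kinase, by 1.18 ± 0.25. All 7 mitotic entry genes fell (median -0.69), as did all 4 nucleotide supply and all 3 licensing and firing genes. Cdk1 was at 34.8, 27.2, 25.9 and 27.1 CPM with CAP7, below all untreated libraries, with a change of -0.83 ± 0.097. Mcm7 was the helicase subunit that was not called (0.06 ± 0.10), at 47.5, 39.4, 42.7 and 43.6 CPM, which overlapped the untreated values. Ccne2 stood at 14.2, 13.3, 13.4 and 15.9 CPM untreated and at 19.8, 18.5, 17.5 and 18.0 with CAP7, without overlap, a rise of 0.38 ± 0.11 (edgeR adjusted p = 0.00541). With library sizes alone as the scaling, 36 genes fell and none rose, and the change of Ccne2 no longer passed (0.27, edgeR adjusted p = 0.0561); that scaling moved the median of all genes to -0.13. Of the 31 falls, 23 held in each alternative setting that tested the gene and with each library left out.

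SCO without TNF lowered 18 of 39 genes and raised none (background 8.99% lower and 10.3% higher). The falls were 7 of 20 replication genes (median -0.29) and 11 of 19 mitosis genes (median -0.50). Ccna2 was at 9.89, 10.0, 9.36 and 10.7 CPM untreated and at 6.44, 2.54, 4.95 and 5.76 with SCO. Every SCO library was below every untreated one, and replicate 2 of SCO was the lowest. Its change of -1.001 ± 0.20 was the largest fall. Among replication genes the thymidylate synthase Tyms fell by 0.68 ± 0.14, Gins2, part of the active helicase, by 0.54 ± 0.14, and Mcm6, at 12.0, 14.6, 10.1 and 12.7 CPM with SCO, by 0.65 ± 0.12. Rrm2 (-0.27 ± 0.13) and Uhrf1 (-0.10 ± 0.21), both of which fell with CAP7, were not called. The motor Kif11, which separates spindle poles, fell by 0.77 ± 0.25. Limma-voom called 10 genes, and edgeR called 11 without untreated replicate 1 or without SCO replicate 3; 9 of the 18 falls held in every setting and with each library left out (Birc5, Ccna2, Cdk1, Gins2, Mcm4, Mcm6, Tk1, Top2a, Tyms).

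ROSI without TNF raised 10 genes, 5 of each set, and lowered 3, Mcm4, Mcm6 and Cdk1, where 18.4% of all genes rose and 19% fell. Scaling by library sizes alone turned the split to 3 higher and 7 lower, and the median of all genes moved from -0.03 to -0.17. Bub1, a checkpoint kinase, was at 2.30, 1.81, 0.989 and 2.35 CPM untreated and at 4.54, 2.67, 4.10 and 3.12 with ROSI, all above the untreated values, a rise of 0.96 ± 0.25. Plk1 was at 9.11, 8.09, 8.90 and 9.91 CPM untreated and at 14.7, 12.8, 13.0 and 11.2 with ROSI, again without overlap, a rise of 0.53 ± 0.15. Mcm7 stood at 55.5, 58.0, 68.1 and 52.2 CPM with ROSI and rose by 0.49 ± 0.10, above every untreated library. These 3 rises, and the falls of Mcm4 (-0.31 ± 0.085) and Cdk1 (-0.33 ± 0.096), held in every alternative setting that tested the gene and with each library left out. Bub1 had a highest group mean of 4.43 CPM, under the floor of 5 CPM used in 1 of the settings. Cdk1, at 37.8, 48.8, 40.3 and 35.3 CPM with ROSI, overlapped the untreated libraries at 1 value. The rises of Rrm2 (0.40 ± 0.13), Uhrf1 (0.53 ± 0.19), Tk1, Birc5, Cdc20, Nusap1 and Ccne2 did not pass with library sizes alone. The 13 calls became 8 without untreated replicate 3 and 7 without ROSI replicate 2, and limma-voom made 8.

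Markers of preadipocytes and fibroblasts were lower with all 3 compounds without TNF. Of 11 tested, 8 fell with SCO, 10 with CAP7 and 10 with ROSI, and none rose. Over all genes 8.99%, 15% and 19% fell and 10.3%, 15.2% and 18.4% rose, in the same order. These 3 comparisons share the untreated libraries. The list of 12 summed to 4576 to 5259 CPM in untreated libraries, 3033 to 3381 with SCO, 2690 to 3163 with CAP7 and 2964 to 3473 with ROSI. With TNF alone it summed to 3551 to 3723 CPM, with 3 rising and 4 falling. The part of these markers in the changes of the 39 genes was not tested. Of 11 adipocyte markers 5 rose and 1 fell with SCO, 8 and 1 with CAP7, and 7 and 1 with ROSI; with library sizes alone these were 4 and 2, 6 and 3, and 5 and 2.

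**Figure D4:**
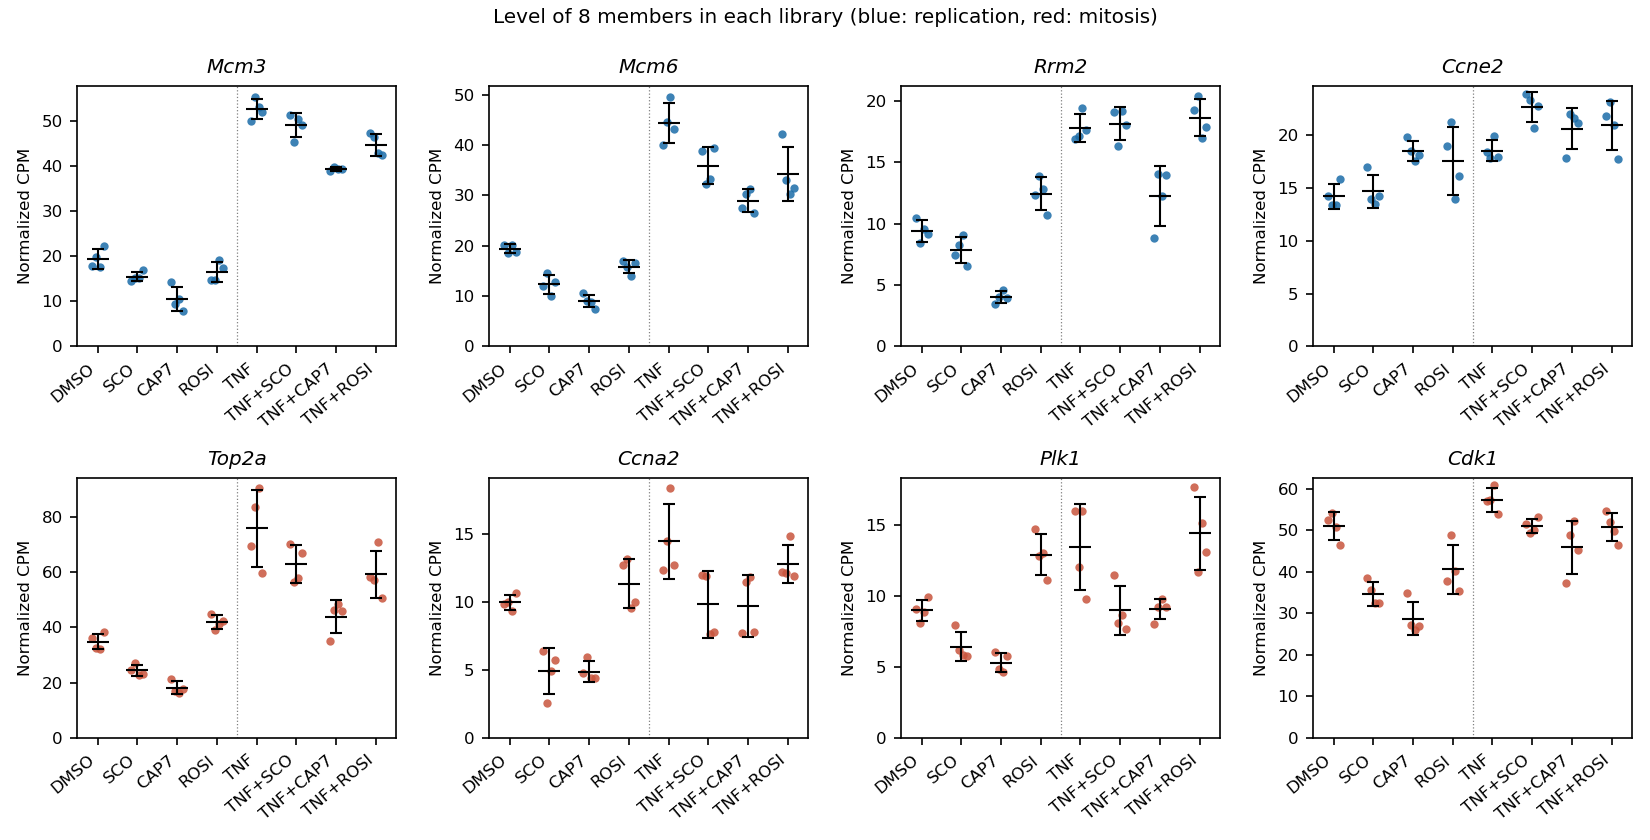
Normalized CPM (y axis, from 0) of 4 replication genes (blue) and 4 mitosis genes (red) in the 4 libraries of each of 8 groups (x axis); dots are libraries, bars the mean and SD. With CAP7 alone Rrm2 is at 3.48 to 4.63 CPM against 8.42 to 10.5 untreated, while Ccne2 is higher, at 17.5 to 19.8 against 13.3 to 15.9 (a rise that did not pass with library sizes alone).

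Under TNF, CAP7 still lowered 27 of 39 genes, 11 of replication and 16 of mitosis, and raised none (background 14.2% lower and 18% higher; medians -0.37 and -0.63). The CAP7 comparisons without and with TNF share no library, and 24 genes were called lower in both, out of 31 and 27. The share of all genes called lower in both was not counted, so this overlap has no background beside it. Nusap1, a spindle-associated protein, was at 16.6, 18.5, 23.6 and 17.7 CPM with TNF and at 7.68, 11.5, 12.4 and 10.1 with TNF plus CAP7, all below the TNF libraries, a fall of 0.88 ± 0.15. The checkpoint kinase Bub1b fell by 0.97 ± 0.19, Kif11 by 0.97 ± 0.22 and Mki67, the antigen used to mark dividing cells, by 0.93 ± 0.23. Of the replication genes Rrm1 fell by 0.43 ± 0.094 and Pcna, at 13.8, 16.9, 16.5 and 14.9 CPM against 24.1, 25.7, 22.7 and 21.1 with TNF alone, by 0.59 ± 0.12. Scaled by library sizes alone, 33 genes fell, with the median of all genes at -0.10. Under TNF all 11 adipocyte markers tested rose with CAP7, and 10 with SCO and 10 with ROSI. Over all genes 18%, 13.2% and 19.6% rose and 14.2%, 8.09% and 16.3% fell, in that order. The adipocyte list summed to 37033 to 45791 CPM with TNF plus CAP7, 34258 to 41464 with TNF plus SCO and 53563 to 66766 with TNF plus ROSI. Of 11 preadipocyte and fibroblast markers 6 fell with CAP7, 8 with SCO and 8 with ROSI, and none rose. That list summed to 2509 to 3239 CPM, 2387 to 3004 and 2695 to 3051, in the same order. The part of these markers in the falls under TNF was not tested.

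SCO with TNF lowered 5 genes, Mcm6, Ccna2, Plk1, Birc5 and Bub1, and raised Ccne2 (background 8.09% lower and 13.2% higher). The medians were -0.06 in replication and -0.36 in mitosis genes. Plk1 was at 16.0, 12.1, 16.0 and 9.79 CPM with TNF and at 11.5, 8.08, 8.68 and 7.69 with TNF plus SCO, with overlap of the highest SCO library, a fall of 0.58 ± 0.15 (edgeR adjusted p = 0.00314). Ccna2 fell by 0.56 ± 0.18, from 14.5 ± 2.76 to 9.84 ± 2.45 CPM (SD, n = 4). Ccne2 was at 23.9, 23.3, 20.6 and 22.8 CPM with SCO and rose by 0.29 ± 0.10, which did not pass with library sizes alone. The SCO comparisons without and with TNF share no library, and 4 genes were called lower in both, out of 18 and 5. Here too the share of all genes called lower in both was not counted. Plk1 alone held in every setting and with each library left out. The count of 6 fell to 2 without TNF replicate 2 or 3 or TNF plus SCO replicate 2 or 3, and to 3 without TNF plus SCO replicate 4; with library sizes alone it was 11, all lower.

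ROSI with TNF lowered 5 genes and raised none (background 16.3% lower and 19.6% higher): Mcm4, Mcm6, Pcna, Pola1 and Top2a. The genes followed here were thus called less often than all genes in both directions. No preferential lowering of them by ROSI is claimed. Pola1, the catalytic subunit of polymerase alpha, was at 21.0, 22.7, 23.3 and 19.9 CPM with TNF and at 15.1, 12.7, 16.1 and 12.4 with TNF plus ROSI, without overlap, a fall of 0.62 ± 0.15. The other falls ran from -0.38 for Mcm6 to -0.21 for Mcm4, and the medians were -0.15 in replication and -0.05 in mitosis genes. Pola1 and Mcm6 held in every setting and with each library left out. With library sizes alone 15 genes fell and the median of all genes was -0.16, and limma-voom called 9. The count was 3 without TNF replicate 2 or 3, 2 without TNF plus ROSI replicate 4, and 8 without TNF replicate 1.

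The interaction, the compound's change with TNF minus its change without, was called for 7 genes with CAP7, 4 with ROSI and 0 with SCO. With CAP7 it was positive for Mcm3 (0.46 ± 0.15), Mcm5 (0.60 ± 0.19), Mcm6 (0.50 ± 0.15), Rrm2 (0.71 ± 0.18), Tk1 (0.69 ± 0.16) and Cdk1 (0.51 ± 0.13) and negative for Ccne1 (-0.48 ± 0.16), where 10.3% of all genes were positive and 5.92% negative. Rrm2 shows the pattern: CAP7 moved it from 9.41 ± 0.868 to 4.01 ± 0.476 CPM without TNF, a log2 change of -1.24, and from 17.8 ± 1.13 to 12.3 ± 2.44 with TNF, a change of -0.54. Tk1, the thymidine salvage kinase, was at 12.2, 13.1, 12.1 and 10.6 CPM untreated and at 9.69, 5.93, 6.52 and 8.22 with CAP7, and at 20.9, 21.7, 22.0 and 19.5 with TNF and 20.8, 22.9, 20.3 and 22.1 with both. CAP7 libraries lay below untreated ones without TNF and overlapped the vehicle libraries with it. Rrm2, Tk1 and Cdk1 held in every setting and with each library left out; the count was 4 without CAP7 replicate 4. With ROSI the interaction was negative for Mcm7 (-0.63 ± 0.14), Pola1 (-0.72 ± 0.21), Top2a (-0.62 ± 0.16) and Nusap1 (-0.67 ± 0.22), and positive for none (background 10.1% positive and 4.51% negative). Mcm7 rose with ROSI alone, and with TNF it was at 68.3, 71.7, 73.8 and 57.1 CPM with ROSI and 72.8, 81.2, 70.0 and 73.4 without, which overlapped. Mcm7 and Top2a held in every setting and with each library left out; the count was 2 without untreated replicate 3 or ROSI replicate 3. With SCO edgeR called no interaction (background 3.51% positive and 1.13% negative). At an unadjusted p under 0.05, 7 of the genes followed here were positive and none was negative. At that threshold 1549 of all 14428 genes were positive and 732 negative, so the positive lean was not confined to the genes followed here. DESeq2 called 1 interaction and limma-voom 0. The edgeR count was 1 without untreated replicate 4, SCO replicate 1 or 3, or TNF plus SCO replicate 3.

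Set directly against each other without TNF, the compounds differed in more mitosis than replication genes where ROSI was one of the pair. CAP7 was lower than ROSI in 34 of 39 genes, all 19 of mitosis and 15 of replication (background 6.27% lower and 5.39% higher), with medians of -1.15 and -0.48. SCO was lower than ROSI in 21, 15 of mitosis and 6 of replication (background 7.33% lower and 7.39% higher), with medians of -0.78 and -0.26. Plk1 differed by -1.28 ± 0.16 between CAP7 and ROSI and by -1.004 ± 0.16 between SCO and ROSI. Top2a was at 24.7, 27.3, 22.9 and 23.3 CPM with SCO, 21.5, 17.2, 16.4 and 17.8 with CAP7 and 45.0, 39.2, 41.2 and 42.3 with ROSI, and no SCO or CAP7 library reached a ROSI library. SCO was higher than CAP7 in 7 genes, Mcm3, Mcm5, Mcm6, Rrm2, Uhrf1, Top2a and Aurkb, and lower in none (background 3.01% higher and 3.04% lower). Rrm2 differed by 0.97 ± 0.14, with SCO at 7.46, 8.29, 9.07 and 6.57 CPM and no overlap with CAP7. Plk1 differed by 0.27 ± 0.17 (95% interval -0.06 to 0.61) and Ccna2 by 0.03 ± 0.21 (95% interval -0.40 to 0.45); neither was called. Limma-voom called 3 genes, as did edgeR without CAP7 replicate 4. A chemical difference between SCO, CAP7 and ROSI is not described here, because the sources used do not say what SCO and CAP7 are.

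The same pairs were compared with TNF. CAP7 was lower than ROSI in 11 genes, Rrm2 and 10 of mitosis (background 5.09% lower and 3.48% higher; medians -0.23 and -0.56). Without TNF plus CAP7 replicate 1 the count was 7, and without TNF plus ROSI replicate 3 it was 6. SCO differed from ROSI in 4 genes: Birc5, Bub1 and Plk1 were lower (background 8.64%) and Pola1 was higher (background 5.74%), with 2 genes called without TNF plus SCO replicate 3. Pola1 was at 18.7, 20.8, 25.2 and 18.2 CPM with TNF plus SCO, above every TNF plus ROSI library, a difference of 0.56 ± 0.15. SCO was higher than CAP7 in 12 genes, 8 of replication and 4 of mitosis, and lower in none (background 4.13% higher and 5.03% lower). Among these were Pcna (0.53 ± 0.12), Top2a (0.52 ± 0.11) and Rrm2 (0.57 ± 0.12), which held in every setting and with each library left out. That count was 6 with only the 2 groups fitted, 7 without TNF plus SCO replicate 1, 4 without TNF plus SCO replicate 3 and 3 without TNF plus CAP7 replicate 1.

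Cells that received TNF with a compound were also set against untreated cells, which shows where the levels ended. With SCO 25 genes were higher, 19 of 20 replication but 6 of 19 mitosis genes, and none was lower (background 25.2% higher and 22.3% lower; medians 0.86 and 0.41). With CAP7 16 were higher, 13 of replication and 3 of mitosis, and none was lower (background 21.4% and 19.2%; medians 0.48 and 0.01). With ROSI 32 were higher, 18 and 14, and none was lower (background 24.9% and 21.1%; medians 0.65 and 0.64). Plk1 with TNF plus SCO, at 11.5, 8.08, 8.68 and 7.69 CPM, overlapped the untreated libraries and differed by 0.01 ± 0.15 (95% interval -0.31 to 0.32), and Ccna2 by -0.02 ± 0.19 (95% interval -0.39 to 0.36). Under TNF plus CAP7 mitotic entry genes had a median difference of -0.04 with 1 of 7 called, and helicase genes 0.59 with 6 of 6 called. Mcm3 in that group was at 38.8, 39.8, 39.3 and 39.4 CPM, above every untreated library. Scaled by library sizes alone, 10 genes were higher and 1, Cdk1, was lower with TNF plus CAP7. These comparisons reuse the untreated libraries and are given side by side only.

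**Figure D5:**
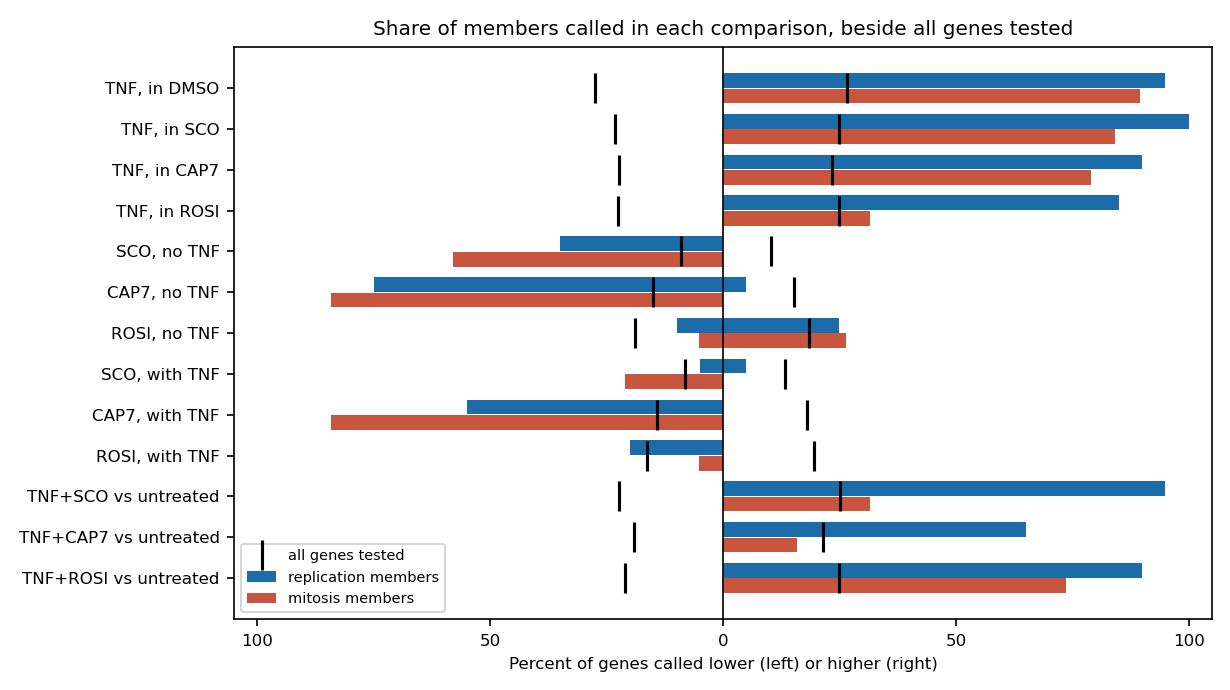
Percent of the 20 replication genes (blue) and 19 mitosis genes (red) called higher (right) or lower (left) by edgeR in 13 comparisons (y axis); black ticks give the share of all 14428 genes. Bars for TNF in ROSI differ between the sets (17 of 20 against 6 of 19), as do those for TNF plus SCO against untreated (19 of 20 against 6 of 19); for ROSI without TNF the 10 higher and 3 lower calls became 3 and 7 with library sizes alone.

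Genes of the same processes outside the 39 were counted from lists. For TNF the shares of all genes called higher and lower were 26.7% and 27.5% in vehicle and 24.9% and 22.5% in ROSI. For the compounds without TNF they were 10.3% and 8.99% with SCO, 15.2% and 15% with CAP7, and 18.4% and 19% with ROSI. With TNF they were 13.2% and 8.09%, 18% and 14.2%, and 19.6% and 16.3%, in the same order. With ROSI alone both lists lay below these shares in both directions. Of 52 other replication genes 36 rose and 6 fell with TNF in vehicle, among them the chromatin remodeller Hells (1.39 ± 0.11), the DNA ligase Lig1 (1.003 ± 0.10) and the histone chaperone Nasp (0.82 ± 0.076); the falls were Rfc1, Orc3, Orc5, Rpa3, Gins4 and Recql4 (-1.57 ± 0.31). In ROSI 28 rose and 7 fell. CAP7 without TNF lowered 20 (Lig1 -0.67 ± 0.10, Pold1 -1.004 ± 0.23) and raised 4, Orc2, Orc4, Orc5 and Rfc1. SCO lowered 6 and raised 1, Orc5 (0.26 ± 0.086), and ROSI raised 9 and lowered 3. With TNF the counts of higher and lower were 1 and 0 with SCO, 0 and 15 with CAP7, and 6 and 11 with ROSI. Of 69 other mitosis genes 43 rose and 3 fell with TNF in vehicle, among them the condensin subunit Smc2 (1.02 ± 0.11) and the nuclear lamin Lmnb1 (1.18 ± 0.14); Anln, Cdc25b and Cks1b fell. In ROSI 20 rose and 4 fell. CAP7 without TNF lowered 43 and raised none (Ndc80 of the kinetochore -1.81 ± 0.30, the central spindle motor Kif23 -1.42 ± 0.18), SCO lowered 19 and raised none, and ROSI raised 6 and lowered 1, Cdc25b (-0.62 ± 0.098). With TNF SCO lowered 8, CAP7 37 (the cytokinesis regulator Racgap1 -0.69 ± 0.11) and ROSI 4, and ROSI raised 1. With library sizes alone the split for ROSI without TNF turned to 3 higher and 6 lower among other replication genes and to 2 and 4 among other mitosis genes, and none of the other replication genes rose with SCO or CAP7. With TNF that scaling gave 0 higher and 2 lower of the other replication genes with SCO, 0 and 23 with CAP7, and 1 and 21 with ROSI. The other mitosis genes called lower were then 17 with SCO, 47 with CAP7 and 19 with ROSI, and none was higher.

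Regulators of the G1 phase moved in both directions. With TNF in vehicle 13 of 38 tested rose (34.2%) and 10 fell (26.3%), near the 26.7% and 27.5% of all genes: the CDK inhibitor Cdkn2c fell by 3.57 ± 0.10, the retinoblastoma gene Rb1 by 0.84 ± 0.094 and cyclin D3, Ccnd3, by 0.71 ± 0.064, while the kinase Cdk6 rose by 1.08 ± 0.072. Cdkn2c was at 233, 230.3, 229 and 243 CPM untreated and at 20.3, 19.2, 19.8 and 19.5 with TNF, without overlap. In the presence of TNF it was higher with SCO (1.46 ± 0.097), CAP7 (1.67 ± 0.097) and ROSI (1.91 ± 0.098). Without TNF cyclin D1, Ccnd1, fell with SCO (-0.60 ± 0.086), CAP7 (-1.19 ± 0.087) and ROSI (-0.91 ± 0.086), and the CDK inhibitor Cdkn1a rose with CAP7 (0.97 ± 0.20) and ROSI (1.16 ± 0.20). Over the list, 4 rose and 5 fell with SCO, 8 and 8 with CAP7, and 8 and 10 with ROSI without TNF, and with TNF 6 and 2, 6 and 4, and 8 and 7. These splits, scaled by library sizes alone, were 3 and 7, 4 and 15, and 4 and 14 without TNF and 4 and 5, 4 and 10, and 5 and 13 with it. With TMM scaling 10.3% of all genes rose and 8.99% fell with SCO, 15.2% and 15% with CAP7, and 18.4% and 19% with ROSI. With TNF these shares were 13.2% and 8.09%, 18% and 14.2%, and 19.6% and 16.3%. No departure of the G1 list from the shares of all genes is claimed.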

How the data were processed

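RNA of 32 libraries was sequenced with the QuantSeq 3′ mRNA method, per the labels' protocols. The authors deposited raw, unscaled counts per Ensembl gene. Build GRCm39 and the tools HTSeq 2.0.5, STAR 2.7.11b, cutadapt 4.9, limma 3.60.6 and R 4.4.1 are listed in the submitters' processing notes. How multi-mapping reads were treated is not given in the sources used here. Columns were tied to samples by the library name in the labels, and symbols came from GENCODE M21.

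Counts above 0 were found for 28862 of 57186 genes, and filterByExpr kept 14428. One edgeR 4.0.16 fit in R 4.3.3 (TMM, quasi-likelihood F test, 24 residual degrees of freedom) gave 22 comparisons; p-values were adjusted over all tested genes and called under 0.05. The common biological coefficient of variation was 0.112. Totals of 11.3 to 37.7 M counts leave genes of few counts least precise.

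The 39 genes, the other gene lists and the tests were chosen with earlier results of these data known. Named are, by role, the genes with the lowest p in a comparison, any called against the majority, up to 4 genes of each other list, and any G1 regulator. The lists cover other replication genes, other mitosis genes, G1 regulators, S phase DNA repair, p53 targets, and markers of adipocytes, preadipocytes and fibroblasts, leukocytes, endothelial and mural cells. Alternatives were RLE factors, library sizes alone, no mitochondrial genes, no filter, a floor of 5 CPM in 4 libraries, limma-voom (limma 3.58.1), DESeq2 1.42.0, a replicate block, thinning, only the groups compared, and leaving out each library. Genes under the floor of 5 CPM were not tested in that setting, and calls said to hold were held wherever the gene was tested. The labels number the replicates 1 to 4 in every group and do not say whether equal numbers are paired. The values of 1 repair gene are not reported here.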

Additional observations from a re-analysis of the deposited data

Results flagged for a closer look

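Among 312 sets of 4 libraries (39 genes in 8 groups), 13 held a value whose gap to its nearest neighbour exceeded Dixon's critical share of the set's range; that is 4.17% of the sets, and chance gives about 1 in 20. The highest of their group, set apart from 3 closer values, were Mcm4 with TNF plus ROSI (replicate 1, 38.3 CPM, where the next library was at 36.6), Pcna with ROSI (replicate 3, 16.2), Cdk1 with CAP7 (replicate 1, 34.8), Tpx2 with CAP7 (replicate 1, 16.9), Ccna2 with TNF plus ROSI (replicate 3, 14.9), Mki67 with TNF (replicate 3, 12.6) and Kif11 untreated (replicate 4, 4.53). Bub1 with TNF plus ROSI (replicate 2) was the highest of its group at 4.901 CPM. The lowest of their group were Gins2 with ROSI (replicate 3, 6.72 CPM), Prim1 untreated (replicate 4, 3.70), Uhrf1 with ROSI (replicate 4, 4.38), Ccnb2 with SCO (replicate 4, 1.45) and Aurkb with TNF plus SCO (replicate 4, 3.19).

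The interaction term of the edgeR fit, the compound's change with TNF minus that without, was called for 11 genes. Over all genes 10.3% were positive and 5.92% negative with CAP7, and 10.1% and 4.51% with ROSI. No departure from these shares is claimed. Only Rrm2, Tk1, Cdk1, Mcm7 and Top2a held in every setting and with each library left out. With CAP7 the log2 difference was 0.46 for Mcm3, 0.60 for Mcm5, 0.50 for Mcm6, 0.71 for Rrm2, 0.69 for Tk1, 0.51 for Cdk1 and -0.48 for Ccne1. With ROSI it was -0.63 for Mcm7, -0.72 for Pola1, -0.62 for Top2a and -0.67 for Nusap1.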

How the results depend on the processing

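Of 16314 values of a gene in a comparison under another setting, 15565 stayed called or stayed uncalled, 494 lost the call and 255 gained one. With a call in either fit, 0 turned direction. Turns of direction among uncalled values were not counted. Leaving out single libraries accounted for 354 of the lost calls. With library sizes alone the count of called genes was 11 for SCO with TNF and 15 for ROSI with TNF. The replication median was then -0.72 for CAP7 and -0.17 for ROSI without TNF, -0.48 for CAP7 and -0.31 for ROSI with TNF (mitosis -0.21), 0.17 for SCO against ROSI with TNF, and 0.39 and 0.51 for TNF plus CAP7 and TNF plus ROSI against untreated. Limma-voom called 10 genes for SCO and 8 for ROSI without TNF, 9 for ROSI with TNF and 3 for SCO against CAP7 without TNF. Fitting only the groups compared gave 8 genes for ROSI with TNF, 6 for SCO against CAP7 with TNF and 2 for the SCO interaction. That interaction had 1 gene with DESeq2, with the filter at 5 CPM and with the replicate block. Thinned to the lowest total, SCO against ROSI with TNF had 2 genes and the CAP7 interaction 4. The cause of these shifts was not tested.

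With each library left out, the counts ran from 11 to 19 for SCO and 7 to 14 for ROSI without TNF, 2 to 7 for SCO and 2 to 8 for ROSI with TNF, 3 to 9 for SCO against CAP7 without TNF, 2 to 4 for SCO against ROSI, 6 to 12 for CAP7 against ROSI and 3 to 10 for SCO against CAP7 with TNF. The interactions ran from 0 to 1 for SCO, 4 to 7 for CAP7 and 2 to 6 for ROSI. The replication median of SCO against ROSI without TNF ran from -0.35, without SCO replicate 1, to -0.23.

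Libraries with the same replicate number were little alike over all tested genes. Their deviations from the group means correlated at 0.0116 on average over 112 pairs, from -0.106 to 0.157, with 3 pairs over 0.1. Pairs with different numbers averaged -0.00386, and 8 of 32 libraries correlated best with a library of their own number. These values cannot exclude a pairing. With the replicate block 850 values stayed called or stayed uncalled, 8 gained a call and 0 lost one. Genes with the fewest counts, such as Cdc6 and Bub1 at a few CPM, are the least precise.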

Other observations

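DNA repair genes of S phase and p53 targets were not part of the 39. Of 28 repair genes 16 rose with TNF in vehicle, the largest being Trip13, a remodeller of HORMA domain proteins (2.34 ± 0.18), and 1 fell, where 26.7% of all genes rose and 27.5% fell. Without TNF CAP7 lowered 9 repair genes and raised 3, SCO lowered 5 and raised none, and ROSI raised 3 and lowered 2. Of all genes 15% fell and 15.2% rose with CAP7, 8.99% and 10.3% with SCO, and 19% and 18.4% with ROSI, so that the repair genes called with ROSI (10.7% higher, 7.14% lower) lay below that background. With TNF the higher and lower counts were 1 and 1 with SCO, 2 and 6 with CAP7, and 1 and 1 with ROSI; over all genes the shares were 13.2% and 8.09%, 18% and 14.2%, and 19.6% and 16.3%. Of 23 p53 targets 9 rose and 9 fell with TNF in vehicle (39.1% each way), among them the death receptor Fas (3.79 ± 0.16). Without TNF 4 rose and 2 fell with SCO, 6 and 5 with CAP7 (the stress cytokine Gdf15 1.40 ± 0.18), and 6 and 8 with ROSI, and with TNF 2 and 1, 4 and 3, and 3 and 6. With library sizes alone the p53 targets split as 2 and 4 with SCO, 5 and 7 with CAP7 and 5 and 10 with ROSI without TNF, and as 1 and 3, 1 and 4, and 1 and 9 with TNF, and the repair genes as 1 and 11 with CAP7 alone, 2 and 3 with ROSI alone, 1 and 10 with TNF plus CAP7 and 1 and 8 with TNF plus ROSI.

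Of 4 endothelial markers 1 was tested, with a highest group mean of 1.30 CPM; it was not called for TNF in vehicle. Of 4 mural markers 2 were tested, and both fell with TNF in vehicle. Within each of the 4 groups without TNF, replicate 1 had the smallest difference between the replication and the mitosis means (0.48 untreated, 0.71 with SCO, 0.76 with CAP7 and 0.30 with ROSI); with TNF it was replicate 3 in vehicle (0.63), 1 with SCO (0.96), 2 with CAP7 (0.93) and 3 with ROSI (0.56). The labels give no batch or day for these numbers.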
